A study of Mus musculus with 12 samples.

Results

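Transcripts of enzymes that place or remove marks on histones and DNA were measured by RNA sequencing in sorted intraepithelial lymphocytes (IEL) of the mouse small intestine. The members were the genes whose symbol in the deposited table of read counts begins with Hdac, Sirt, Kdm, Setd, Dnmt or Ezh followed by a digit, together with Tet1, Tet2 and Tet3. Kdm5c, Kdm5d and Kdm6a, which lie on the sex chromosomes, were left out. The rule took 50 of 25965 rows and 49 symbols, and 48 of these were among the 12622 genes tested. Dnmt3l, a cofactor of the de novo DNA methyltransferases, had 2 reads in all and was not tested. Hdac4 was split over 2 rows, and the row with more reads is the one described unless the longer row is named.

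The 4 groups had 3 libraries each. Hosts were Rag2-/- mice, which lack lymphocytes with rearranged receptors but keep other cells of the immune system and the gut. Conventional CD4+ or CD8αβ+ T cells, taken from the lymph nodes of donors wild type for Themis, were injected intravenously, and IEL were collected 1 week later. A minimum of 2 × 10⁶ cells is listed alike for every library. TCRβ CD8αα+ cells of hosts given CD4+ cells (CD8αα from CD4) were set against TCRβ CD4+ cells labelled as CD4 progeny (CD4 IEL). TCRβ CD8αα+ cells of hosts given CD8αβ+ cells (CD8αα from CD8αβ) were set against TCRβ CD8αβ+ cells labelled as CD8αβ progeny (CD8αβ IEL). Below, the CD4 progeny stands for CD8αα from CD4 relative to CD4 IEL, and the CD8αβ progeny for CD8αα from CD8αβ relative to CD8αβ IEL. CD4 IEL and CD8αβ IEL are called the companions, and the descent of the CD8αα cells was not tested. The genotype of all 12 libraries is given as WT. Whether the 3 libraries of a group came from different mice is not stated in the labels, and the spread behind each p-value may therefore be technical.

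The CD8αα libraries stood apart from their labels in T cell markers, and 4 of them stood apart from all other libraries in sex-linked transcripts. Cd3e, which encodes a defining chain of the T cell receptor complex, had 3.21 to 12.8 CPM (read counts scaled to the library's TMM-adjusted total) in CD8αα from CD4 and 504.9 to 638.2 CPM in CD4 IEL. It had 14.1 to 22.1 CPM in CD8αα from CD8αβ and 402.9 to 573.7 CPM in CD8αβ IEL. Of 12 T cell markers, 11 fell and 1, Cd3g, rose in CD8αα from CD4 relative to CD4 IEL. In CD8αα from CD8αβ relative to CD8αβ IEL, 9 fell and Cd3g rose. The summed level of 10 markers of natural killer and other innate lymphoid cells was 3952 to 4873 CPM in CD8αα from CD4, 1225 to 1349 CPM in CD4 IEL, 4212 to 6724 CPM in CD8αα from CD8αβ and 1449 to 1854 CPM in CD8αβ IEL. Of these 10, 5 rose and Eomes and Gata3 fell in the CD4 progeny, and 5 rose and Eomes fell in the CD8αβ progeny, with Fcer1g alone at 1028 to 2117 CPM in the CD8αα libraries. Ncr1, a defining receptor of natural killer cells, had 0 to 4.27 CPM in CD8αα from CD4, against 4.04 to 7.17 CPM in CD4 IEL. It had 0.56 to 1.59 CPM in CD8αα from CD8αβ, against 0 CPM in CD8αβ IEL, and was among those called higher there. The 10 myeloid markers summed to 545.7 to 594.8 CPM in CD8αα from CD4, 35.0 to 104.2 CPM in CD4 IEL, 530.0 to 613.9 CPM in CD8αα from CD8αβ and 85.2 to 102.7 CPM in CD8αβ IEL, with S100a8 and S100a9 at 0 throughout. That sum rose through Fcgr3 and Itgam, the 2 called higher in both progenies, while Cd68, Csf1r and Lyz2 fell in the CD8αβ progeny and the median log2 fold change of the 7 tested was -0.82 and -0.99. The 12 epithelial markers summed to 447.6 to 555.2, 106.5 to 193.0, 583.9 to 737.5 and 239.2 to 436.0 CPM in the same order of groups, and the 6 B cell markers to 45.2 to 55.2, 3.13 to 6.76, 67.3 to 75 and 10.4 to 20.6 CPM, with Pax5 and Ebf1 at 0. Of the 10 epithelial markers tested, Cdh1 and Epcam were called higher in both progenies, Krt18 and Lgals4 in the CD8αβ progeny only, and 0 lower. Cd79b was the only B cell marker tested and was called higher in both progenies. The Y-linked transcripts Ddx3y, Eif2s3y and Uty summed to 223 to 379 CPM in every CD4 IEL and CD8αβ IEL library. Among CD8αα libraries only CD8αα from CD4 replicate 3 (325 CPM) and CD8αα from CD8αβ replicate 2 (301 CPM) had them, and the other 4 had 0.341 to 0.689 CPM beside 373 to 645 CPM of Xist. The part of these differences in the results that follow was not tested, and called members are also given with those Y-positive libraries as the only CD8αα samples. Cd3e was low in these libraries too, at 12.8 CPM (CD8αα from CD4 replicate 3) and 18.9 CPM (CD8αα from CD8αβ replicate 2). Cd3g was high there, at 2347 and 3777 CPM. With them alone, the median log2 fold change of the 12 T cell markers was -4.82 against CD4 IEL and -4.88 against CD8αβ IEL. That choice thus removes the difference in sex-linked transcripts but keeps the one in T cell markers. With 1 library left in a group, that library is assumed to vary like the others.

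Histone deacetylases take acetyl groups off histones and other proteins, and sirtuins do so at the cost of NAD. Methyl groups on histone lysines are written by SET domain enzymes such as Ezh1 and Ezh2, the alternative catalytic subunits of Polycomb repressive complex 2 (PRC2), and are erased by lysine demethylases (Kdm). Dnmt1 copies DNA methylation after replication, Dnmt3a and Dnmt3b set it de novo, and the Tet dioxygenases oxidise it. In T cells these enzymes are known for holding CD4 and CD8 lineage and effector genes open or shut, Ezh2 and Dnmt1 being most abundant in dividing cells.

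Promoter windows are shown for 4 members on which the results turn, namely the PRC2 catalytic genes Ezh2 and Ezh1, which followed different orders over the groups, and Tet1 and Hdac9, which rose in both CD8αα groups. RefSeq starts (GRCm38.p6) were found for 39 of the 49 members. Each window holds the 250 bases before a start, on the strand of the gene, 5′ to 3′. Capitals mark a cell cycle homology region, spelled TTTGAA on either strand. The windows lie at chr6:47595031-47595280 (minus strand) for Ezh2, chr11:101226464-101226713 (minus strand) for Ezh1, chr10:62887325-62887574 (minus strand) for Tet1 and chr12:34528890-34529139 (minus strand) for Hdac9.
Ezh2: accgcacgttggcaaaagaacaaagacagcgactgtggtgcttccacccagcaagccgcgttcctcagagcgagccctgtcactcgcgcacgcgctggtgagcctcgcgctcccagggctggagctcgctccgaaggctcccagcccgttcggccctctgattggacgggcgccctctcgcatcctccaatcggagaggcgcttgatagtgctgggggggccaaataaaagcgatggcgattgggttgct
Ezh1: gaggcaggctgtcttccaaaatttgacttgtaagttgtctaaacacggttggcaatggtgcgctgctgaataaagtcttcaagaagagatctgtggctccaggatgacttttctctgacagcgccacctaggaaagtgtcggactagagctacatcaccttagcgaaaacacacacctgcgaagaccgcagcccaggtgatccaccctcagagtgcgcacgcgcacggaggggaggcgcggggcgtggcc
Tet1: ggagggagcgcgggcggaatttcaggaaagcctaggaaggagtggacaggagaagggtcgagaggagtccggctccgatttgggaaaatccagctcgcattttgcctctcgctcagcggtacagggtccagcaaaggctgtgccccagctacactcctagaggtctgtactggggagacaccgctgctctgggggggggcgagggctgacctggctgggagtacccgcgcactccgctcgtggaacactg
Hdac9: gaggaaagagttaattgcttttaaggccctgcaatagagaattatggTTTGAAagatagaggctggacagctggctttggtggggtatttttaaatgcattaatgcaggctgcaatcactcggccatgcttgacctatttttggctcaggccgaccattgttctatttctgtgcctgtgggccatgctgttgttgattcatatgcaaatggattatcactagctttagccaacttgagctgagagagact
The Hdac9 window ends where the counted row starts and belongs to the nearer of 2 RefSeq starts, while the RefSeq starts of Tet1 and Ezh2 lie inside their counted rows. The GC content of the Hdac9 window was 43.6% with 2 CpG, against 63.6% with 23 CpG at Ezh2, 62.8% with 15 CpG at Tet1 and 55.2% with 14 CpG at Ezh1. Over all windows of the table the median GC content was 52.4% and the median CpG count 6. TTTGAA occurred in 8 of the 39 members (Hdac9, Hdac6, Hdac8, Dnmt1, Dnmt3b, Setd6, Sirt7 and Kdm1b), against 18.3% of 27025 genes. An E2F site, spelled TTTCCCGC or TTTGGCGC on either strand, occurred in 1 member (Sirt4), against 1.51% of genes. Neither spelling contains the other, and these counts describe the letters of the windows only.

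A gene was called at an adjusted p under 0.05 (edgeR's quasi-likelihood test, Benjamini-Hochberg over all 12622 genes), and fold changes are log2 with their standard error (SE). Of the 48 members tested, 14 were called when CD8αα from CD4 were set against CD4 IEL, 5 higher and 9 lower, while 28.5% of all genes were called (15% higher and 13.5% lower). In CD8αα from CD8αβ against CD8αβ IEL, 17 were called, 8 higher and 9 lower, against a background of 31.2% (16.1% higher and 15.1% lower). These libraries are not shared between the comparisons. Hdac4, Hdac9, Kdm5b and Tet1 rose in both, and Hdac10, Kdm4d, Kdm6b, Kdm2b, Dnmt1 and Ezh2 fell in both. These 10 are 71.4% of the members called in the CD4 progeny and 58.8% of those called in the CD8αβ progeny, and over all genes the shares were 63.0% and 57.5%. No member was called in opposite directions. In CD4 IEL against CD8αβ IEL, 15 members were called, 11 higher and 4 lower, with a background of 29.0% (12.9% higher and 16.0% lower). No member was called in CD8αα from CD4 against CD8αα from CD8αβ, where 4.33% of all genes were (1.87% higher and 2.46% lower). The members' shares called in the first 3 comparisons were 29.2%, 35.4% and 31.2%, close to those backgrounds. The median log2 fold change of the members was -0.14, 0.06, 0.31 and 0.18 in these 4 comparisons in the order given, against 0.02, -0.00, 0.01 and -0.03 over all genes.

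**Figure D1:**
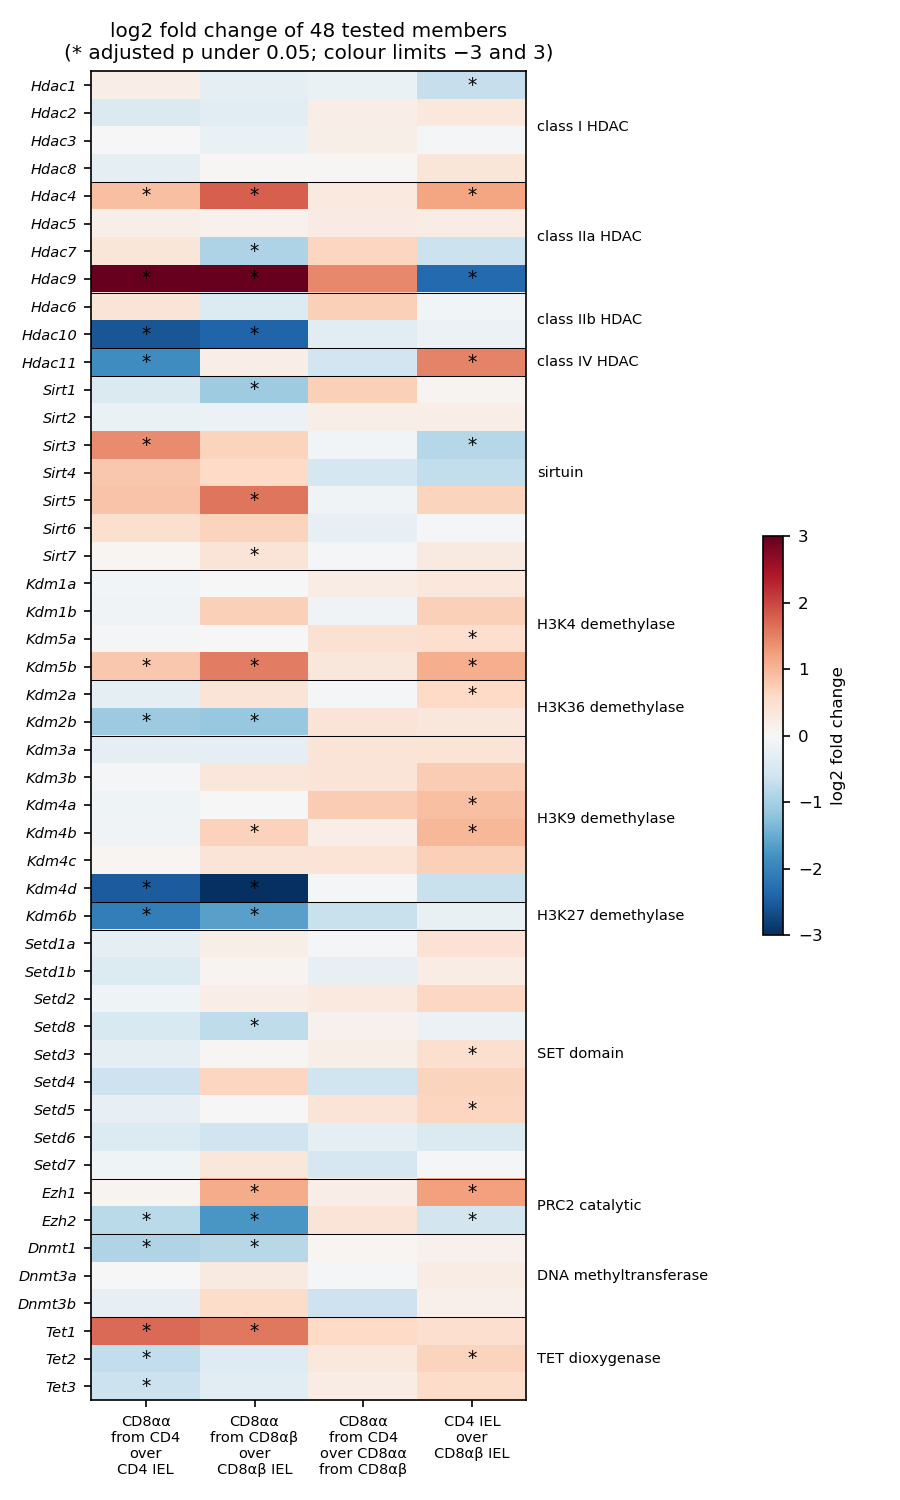
Log2 fold change of the 48 tested members (rows, by enzyme class) in the 4 pairwise comparisons (columns), with asterisks at an adjusted p under 0.05 and colours limited to -3 and 3. The first 2 columns hold 14 and 17 calls in both directions, the third holds 0 and the fourth holds 15, of which 11 are higher in CD4 IEL.

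With the Y-positive libraries as the only CD8αα samples, 3 members were called in CD8αα from CD4 against CD4 IEL (Hdac9, Hdac10 and Kdm6b), where 9.56% of all genes were. In CD8αα from CD8αβ against CD8αβ IEL, 4 were called (Hdac4, Hdac10, Kdm6b and Ezh2), where 10.6% of all genes were. Between the CD8αα groups and for the difference between the changes, none was called, and of all genes 0.00747% and 0.0971% were. All other calls of CD8αα cells against their companions ended under this choice, and no direction changed.

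Per length of exon, Hdac1, the catalytic subunit of the Sin3, NuRD and CoREST complexes, was among the most abundant members at 62.3 ± 3.28 RPKM (reads per kilobase of exon, scaled to library size as CPM) in CD8αα from CD4, 53.9 ± 6.88 in CD4 IEL, 71.8 ± 2.71 in CD8αα from CD8αβ and 87.2 ± 12.6 in CD8αβ IEL (SD, n = 3 each). Sirt7, a nucleolar sirtuin, was next or above it at 58.9 ± 6.24, 56.9 ± 5.2, 61.9 ± 2.81 and 47.6 ± 1.05 RPKM in the same order of groups, and in CD8αα from CD4 and CD4 IEL it differed from Hdac1 by less than the larger of their SDs. Ezh1 had 42.9 ± 2.21 RPKM in CD8αα from CD4, 40.2 ± 2.03 in CD4 IEL, 37.5 ± 1.1 in CD8αα from CD8αβ and 17.3 ± 6.87 in CD8αβ IEL. Dnmt1 had 21.8 ± 2.43, 40.9 ± 1.82, 21.1 ± 5.75 and 37.7 ± 13.3 RPKM in that order of groups, so that the third place was held by Ezh1 in both CD8αα groups, by Dnmt1 in CD8αβ IEL, and by both within their SDs in CD4 IEL. At the low end, Setd1b, Sirt5, Setd4, Setd7, Kdm4d and Hdac9 were under 2 RPKM in all 4 groups. Hdac4 was left out of these orders, since its row does not match an annotated gene model. Hdac9 was kept, but another RefSeq start lies upstream of its row (window chr12:34917096-34917345). Its length counts all exons of its Ensembl gene, also any outside the row, so its RPKM and place may be too low.

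**Figure D2:**
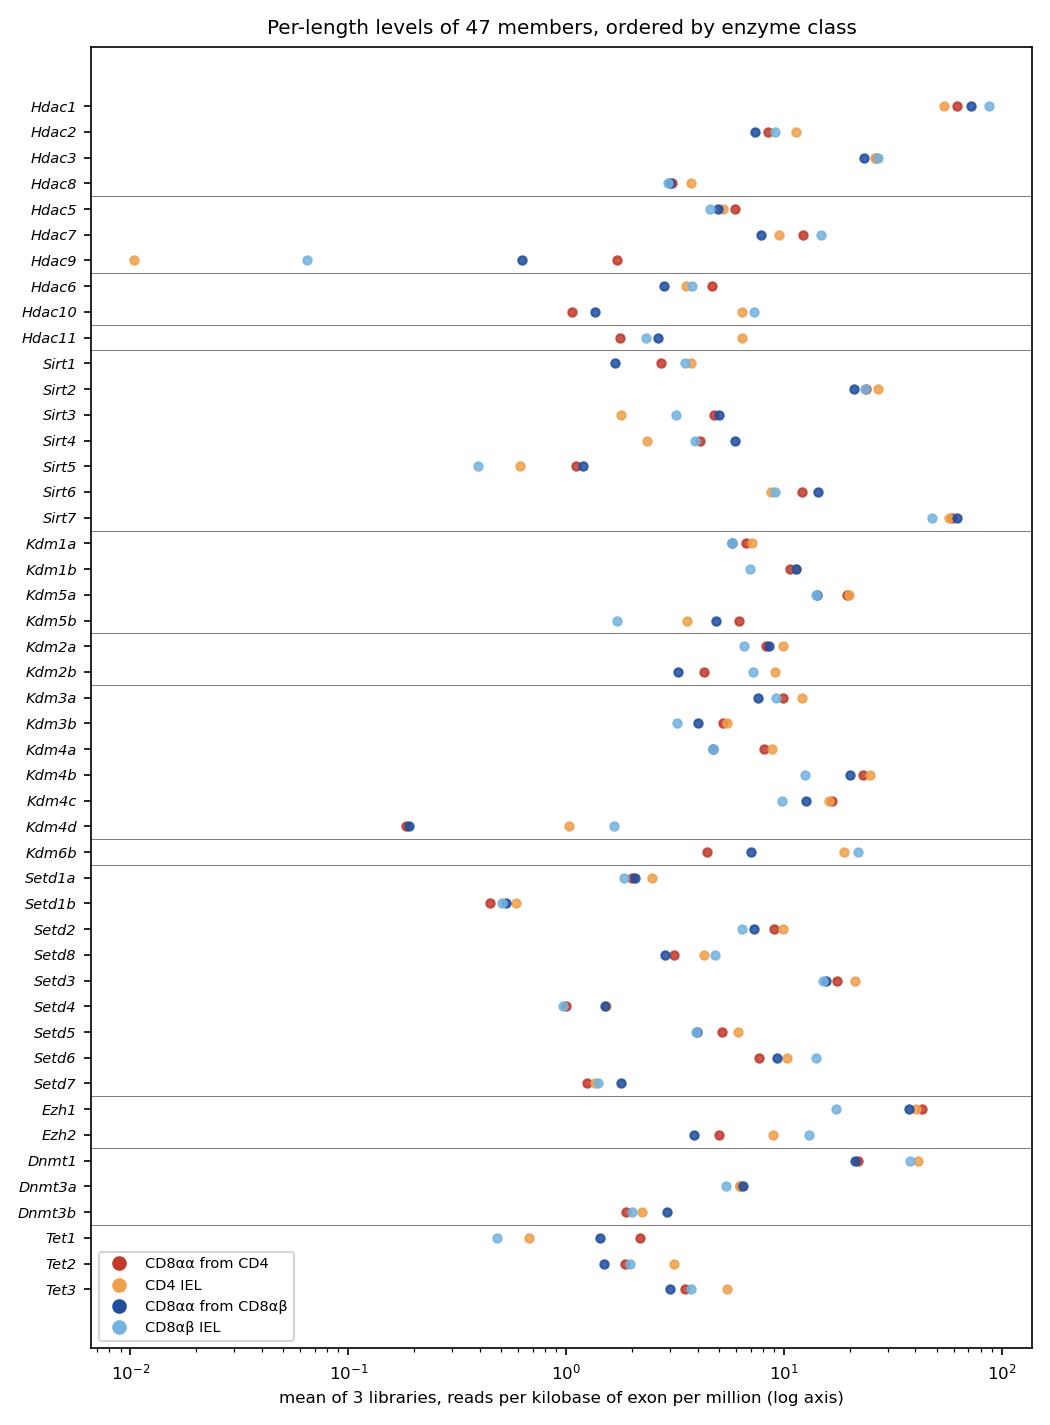
Mean RPKM (log axis) of 47 members, by enzyme class, with 1 point per group (mean of 3 libraries). Hdac9 spans the widest range, at 1.71 RPKM in CD8αα from CD4 and 0.0104 RPKM in CD4 IEL, and Hdac1 reaches 87.2 RPKM in CD8αβ IEL. The points of Hdac9 may be too low, since its length may count exons outside its row.

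Hdac9 rose most of all members in both CD8αα groups. It is a class IIa deacetylase, a family that shuttles between nucleus and cytoplasm and represses MEF2 targets, and its row lies on chromosome 12 at 34371503 to 34528889 (mm10, minus strand). Hdac9 had 24.1, 28.6 and 22.5 CPM in CD8αα from CD4, against 0.327, 0.13 and 0 CPM in CD4 IEL. It had 14.1, 7.33 and 6.09 CPM in CD8αα from CD8αβ, against 1.52, 0.317 and 0.987 CPM in CD8αβ IEL. Every CD8αα library was thus above every library of both companion groups. The companion levels rest on 4 reads in all 3 CD4 IEL libraries and 20 in the CD8αβ IEL libraries. A count of 0 in CD4 IEL replicate 3 allows up to 0.47 CPM, and such limits and intervals cover counting error only. The log2 fold change was 7.10 ± 0.70 in the CD4 progeny (SE, adjusted p 5.36e-06) and 3.31 ± 0.56 in the CD8αβ progeny (adjusted p 4.91e-04). From summed reads, the level in CD8αα from CD4 was 149.8 times that in CD4 IEL (exact 95% counting interval 58.2 to 551.8), and in CD8αα from CD8αβ it was 10.8 times that in CD8αβ IEL (6.85 to 17.9). With Y-positive CD8αα libraries only, the values were 6.96 (adjusted p 0.00353) and 2.97 (adjusted p 0.085). Less RNA per cell and fewer expressing cells cannot be told apart in these bulk samples.

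Hdac4 was the other class IIa gene that rose in both CD8αα groups. Its levels were 148.1, 105.5 and 101.8 CPM in CD8αα from CD4, against 52.1, 56.8 and 80.8 CPM in CD4 IEL. In CD8αα from CD8αβ they were 136.3, 74.1 and 76.9 CPM, against 36, 19.7 and 27.3 CPM in CD8αβ IEL. The groups did not overlap in either progeny, and the log2 fold changes were 0.91 ± 0.28 (adjusted p 0.026) and 1.79 ± 0.29 (adjusted p 3.20e-04). CD4 IEL were also above CD8αβ IEL by 1.19 ± 0.29 (adjusted p 0.00782). The row described covers 2392 bases of chromosome 1 from 91928785, and the longer row, from 91932757 to 92148393, gave 1.02 (adjusted p 0.00197), 1.21 (adjusted p 0.000522) and 0.68 (adjusted p 0.0255) in the same 3 comparisons. Restricted to Y-positive CD8αα libraries, the values of the row described were 0.69 (adjusted p 0.284) in the CD4 progeny and 1.43 (adjusted p 0.0293) in the CD8αβ progeny. The call in the CD4 progeny also ended without CD4 IEL replicate 1 (0.105), CD4 IEL replicate 2 (0.0913) or CD8αα from CD4 replicate 1 (adjusted p 0.117).

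Hdac7, a class IIa gene highly expressed in developing T cells, fell in CD8αα from CD8αβ, and the difference of its change between the progenies depended on the test. It had 69.4, 46.6 and 42.4 CPM in CD8αα from CD8αβ, against 125.9, 71.9 and 102.7 CPM in CD8αβ IEL (log2 fold change -0.92 ± 0.24, adjusted p 0.0104). In CD8αα from CD4 it had 104.1, 72.1 and 70.3 CPM, against 73.8, 59.6 and 58.2 CPM in CD4 IEL (0.36 ± 0.24, adjusted p 0.297). The difference between those changes was 1.28 ± 0.34 (adjusted p 0.0691), and it was called by DESeq2 (1.31, adjusted p 0.0102), with the replicate block (1.27, 0.0116), with no filter on low counts (1.3, 0.0412), without CD8αβ IEL replicate 2 (1.48, 0.0292) and without CD8αα from CD8αβ replicate 1 (1.53, adjusted p 0.0465). The call of the fall in CD8αα from CD8αβ against CD8αβ IEL ended without CD8αα from CD8αβ replicate 3 (-0.78, adjusted p 0.0531). The call of that fall also ended with Y-positive CD8αα libraries only (-1.1). Hdac5, the last of the class, was called in no comparison, averaging 52.1 ± 3.54 CPM in CD8αα from CD4, 46.2 ± 7.33 CPM in CD4 IEL, 43.7 ± 1.43 CPM in CD8αα from CD8αβ and 39.9 ± 5.31 CPM in CD8αβ IEL (SD, n = 3 each).

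Hdac10, a class IIb enzyme that deacetylates polyamines, fell in both CD8αα groups. It had 3.92, 4.81 and 2.03 CPM in CD8αα from CD4, against 26.6, 19.7 and 18.4 CPM in CD4 IEL. It had 3.46, 6.37 and 3.9 CPM in CD8αα from CD8αβ, against 26.3, 17.8 and 29.1 CPM in CD8αβ IEL. All 6 CD8αα libraries were below all 6 companions, with log2 fold changes of -2.57 ± 0.37 (adjusted p 1.46e-04) and -2.41 ± 0.36 (adjusted p 1.70e-04). When the CD8αα samples were the Y-positive libraries alone, they were -3.40 (adjusted p 0.00453) and -1.93 (adjusted p 0.0274). Hdac6, the cytoplasmic tubulin deacetylase of this class, was not called by edgeR in the model of all libraries and averaged 27 ± 0.711, 20.5 ± 9.77, 16.3 ± 1.45 and 22.0 ± 11.7 CPM in CD8αα from CD4, CD4 IEL, CD8αα from CD8αβ and CD8αβ IEL (SD, n = 3 each).

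Hdac11, the class IV enzyme, was high in CD4 IEL. It had 5.97, 5.72 and 8.73 CPM in CD8αα from CD4, against 29.9, 21.6 and 22.6 CPM in CD4 IEL (log2 fold change -1.86 ± 0.41, adjusted p 0.00394). It had 11.5, 4.89 and 14.1 CPM in CD8αα from CD8αβ, against 12.7, 5.28 and 8.72 CPM in CD8αβ IEL, and these groups overlapped (0.19 ± 0.40, adjusted p 0.763). CD4 IEL exceeded CD8αβ IEL by 1.48 ± 0.40 (adjusted p 0.0154), without overlap. The difference between the CD8αα changes was -2.06 ± 0.57 (adjusted p 0.0793), and it was called by DESeq2 (-2.03, adjusted p 0.019), with the replicate block (-2.03, 0.0473), without CD8αβ IEL replicate 1 (-2.41, 0.0456) and without CD8αα from CD8αβ replicate 2 (-2.39, adjusted p 0.0331). The fall in CD8αα from CD4 was -1.5 with the Y-positive library only (adjusted p 0.14), and the difference between CD4 IEL and CD8αβ IEL was not called without CD4 IEL replicate 1 (adjusted p 0.0565) or CD8αβ IEL replicate 2 (adjusted p 0.0564).

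Class I deacetylases were called in no comparison of CD8αα cells with their companions. Hdac1 was called between the companions, with 159.4, 205.6 and 191.5 CPM in CD4 IEL, against 350.3, 278.8 and 272.4 CPM in CD8αβ IEL, which did not overlap (log2 fold change -0.70 ± 0.14, adjusted p 0.00244). In the CD8αα groups it averaged 214.7 ± 11.3 CPM in CD8αα from CD4 and 247.3 ± 9.34 CPM in CD8αα from CD8αβ (SD, n = 3 each). Hdac3, the catalytic subunit of the NCoR and SMRT corepressors, averaged 106.6 ± 6.69, 106.4 ± 10.1, 94.2 ± 4.4 and 109.2 ± 11.8 CPM in CD8αα from CD4, CD4 IEL, CD8αα from CD8αβ and CD8αβ IEL. Hdac2, the close paralogue of Hdac1, ranged over 27.1 to 43.0, 50.7 to 50.8, 31.7 to 34.9 and 33.7 to 52.5 CPM in these groups. The X-linked Hdac8 ranged over 12 to 18.8, 13.2 to 23.3, 13.9 to 15.2 and 11.4 to 17.3 CPM.

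Of the 7 sirtuins, Sirt3 was called in the CD4 progeny and Sirt5, Sirt7 and Sirt1 in the CD8αβ progeny. Sirt3, the main mitochondrial deacetylase, had 30.4, 25.2 and 29.3 CPM in CD8αα from CD4, against 7.52, 8.21 and 16.2 CPM in CD4 IEL (log2 fold change 1.42 ± 0.27, adjusted p 0.00138, 1.47 with the Y-positive library only, adjusted p 0.0656). It had 29.6, 32 and 28.7 CPM in CD8αα from CD8αβ, against 18.7, 17.5 and 21.1 CPM in CD8αβ IEL, with no overlap but no call (0.66 ± 0.26, adjusted p 0.0719), although it was called in pairwise fits (0.65, adjusted p 0.0338) and without CD4 IEL replicate 3 (0.66, adjusted p 0.0135). CD4 IEL were thus lowest for Sirt3, and lay below CD8αβ IEL by -0.85 ± 0.27 (adjusted p 0.0299), a call that ended without CD4 IEL replicate 1 (0.115), CD4 IEL replicate 2 (0.108) or CD8αβ IEL replicate 3 (adjusted p 0.0737). Its row overlaps Psmd13 on the opposite strand by 342 bases, and with strand unknown reads there cannot be told apart.

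Sirt5, a mitochondrial desuccinylase, was low, with 9.62, 5.84 and 6.32 CPM in CD8αα from CD8αβ, against 3.46, 0.633 and 3.13 CPM in CD8αβ IEL (log2 fold change 1.61 ± 0.58, adjusted p 0.0489). This call ended when any of 11 of the 12 libraries was left out, the exception being CD8αβ IEL replicate 1, with adjusted p between 0.0508 and 0.159. It also ended in pairwise fits (0.102), with the replicate block (0.0623), with both other scalings (0.0509 and 0.0532) and with no filter (adjusted p 0.0574). Sirt1, a nuclear sirtuin, had 5.42, 7.75 and 13.7 CPM in CD8αα from CD8αβ, against 20.4, 16.2 and 19.6 CPM in CD8αβ IEL, without overlap (-1.07 ± 0.35, adjusted p 0.0303). The Sirt1 call ended without CD8αβ IEL replicate 1 or 3 or CD8αα from CD8αβ replicate 1 or 2 (adjusted p 0.0563 to 0.118) and in pairwise fits (adjusted p 0.0631). Sirt7 was higher by 0.38 ± 0.12 in CD8αα from CD8αβ (adjusted p 0.0273), at 302.6, 321.7 and 330.9 CPM, against 248.5, 238.8 and 247.8 CPM in CD8αβ IEL. That call ended without CD4 IEL replicate 2, any CD8αβ IEL library, or CD8αα from CD8αβ replicate 2 or 3 (adjusted p 0.05 to 0.0913). With Y-positive CD8αα libraries only, Sirt5 gave 1.29 (adjusted p 0.456), Sirt1 -1.27 (0.0703) and Sirt7 0.40 (0.272). Sirt2, Sirt4 and Sirt6 were not called by edgeR in any pairwise comparison of the model of all libraries. In the test of that model for any difference among the 4 groups, Sirt4 was called (adjusted p 0.0257). Without CD4 IEL replicate 3, Sirt4 (1.11, adjusted p 0.0342) and Sirt6 (0.9, adjusted p 0.011) were called in the CD4 progeny and Sirt6 in the CD8αβ progeny (0.66, adjusted p 0.0204), and Sirt6 was also called there in pairwise fits (0.65, adjusted p 0.0398).

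Ezh2 and Kdm6b, which write and erase methylation of lysine 27 of histone H3, both fell in the 2 CD8αα groups. Ezh2, on chromosome 6 at 47530274 to 47595341, had 32.3, 32.9 and 35.9 CPM in CD8αα from CD4, against 50.8, 63.6 and 63.0 CPM in CD4 IEL (log2 fold change -0.81 ± 0.15, adjusted p 0.00125). It had 26.2, 25.8 and 25.1 CPM in CD8αα from CD8αβ, against 78.0, 97.3 and 84.9 CPM in CD8αβ IEL (-1.75 ± 0.15, adjusted p 1.61e-06). All CD8αα libraries were below all companions, and CD8αβ IEL were the highest group. CD4 IEL were below CD8αβ IEL by -0.55 ± 0.15 (adjusted p 0.0143), a call that ended without CD4 IEL replicate 1 (adjusted p 0.0669) or CD8αβ IEL replicate 2 (adjusted p 0.0591). The difference between the CD8αα changes was 0.94 ± 0.21 (adjusted p 0.0351), the fall being smaller in the CD4 progeny. That call ended without CD4 IEL replicate 1 or 2, CD8αβ IEL replicate 2, CD8αα from CD4 replicate 2 or 3, or any CD8αα from CD8αβ library (adjusted p 0.0517 to 0.101), and with Y-positive CD8αα libraries only (1.03, adjusted p 0.555). Restricted to Y-positive CD8αα libraries, the fold changes were -0.72 (adjusted p 0.148) and -1.75 (adjusted p 0.0051). Of 16 markers of dividing cells, 15 fell in CD8αα from CD4 against CD4 IEL and all 16 in CD8αα from CD8αβ against CD8αβ IEL. Their summed level was 625.1 to 678.5 CPM in CD8αα from CD4, 1574 to 1971 in CD4 IEL, 726.7 to 839.6 in CD8αα from CD8αβ and 2752 to 3617 in CD8αβ IEL. Their part in the fall of Ezh2 was not tested.

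Ezh1, the paralogue known from resting cells, on chromosome 11 at 101191115 to 101226463, followed another order. It had 337.7, 306.9 and 312.5 CPM in CD8αα from CD4, against 301.6, 312.4 and 282.5 CPM in CD4 IEL (log2 fold change 0.09 ± 0.22, adjusted p 0.791). It had 277.1, 271.9 and 287.9 CPM in CD8αα from CD8αβ, against 176.7, 74.9 and 133.4 CPM in CD8αβ IEL (1.12 ± 0.22, adjusted p 0.0015, 1.09 with the Y-positive library only, adjusted p 0.0937). CD8αβ IEL were the low group, and CD4 IEL exceeded them by 1.22 ± 0.22 (adjusted p 0.00148). The difference between the CD8αα changes was -1.03 ± 0.31 (adjusted p 0.102), and it was called by DESeq2 (-1.01, adjusted p 0.0298) and without CD8αβ IEL replicate 1 (-1.33, adjusted p 0.0165). Per length, Ezh2 was 0.106, 0.119 and 0.128 of Ezh1 in CD8αα from CD4, against 0.188, 0.227 and 0.248 in CD4 IEL. The ratio was 0.105, 0.106 and 0.0973 in CD8αα from CD8αβ, against 0.492, 1.45 and 0.709 in CD8αβ IEL. Both pairs of groups were apart (exact two-sided permutation test, p 0.1 each, the smallest that 3 against 3 allows), and only CD8αβ IEL replicate 2 had more Ezh2 than Ezh1. The Y-positive libraries, with ratios of 0.128 for the CD4 progeny and 0.106 for the CD8αβ progeny, were below every companion too.

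**Figure D3:**
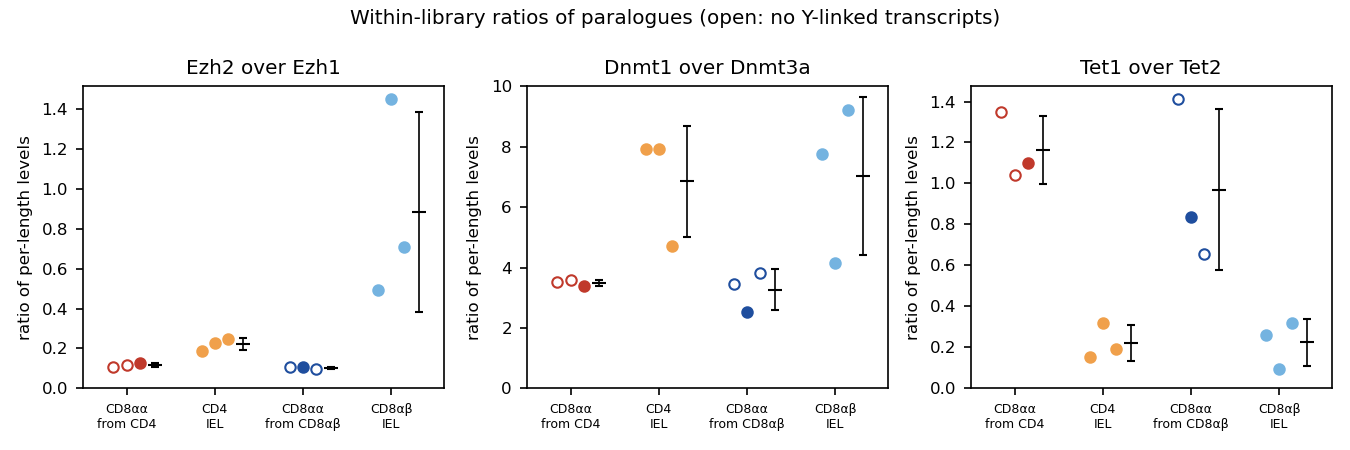
Ratio of per-length levels of 3 pairs of paralogues in each library (points, open where Y-linked transcripts were absent), with mean and SD of 3 libraries. Ezh2 over Ezh1 averaged 0.118 in CD8αα from CD4, 0.221 in CD4 IEL, 0.103 in CD8αα from CD8αβ and 0.882 in CD8αβ IEL, and Tet1 over Tet2 averaged 1.16, 0.221, 0.967 and 0.224.

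Kdm6b, which removes methyl groups from lysine 27 of histone H3 and is induced by activating signals, had the lowest adjusted p of the members that fell in the CD4 progeny. It lies on chromosome 11 at 69398508 to 69413675, where 1700064E03Rik overlaps it by 1188 bases, and reads there cannot be told apart. It had 33.8, 21.6 and 37.3 CPM in CD8αα from CD4, against 109.7, 118.4 and 162.1 CPM in CD4 IEL (log2 fold change -2.08 ± 0.23, adjusted p 1.27e-05). It had 56.8, 40.8 and 48.5 CPM in CD8αα from CD8αβ, against 152.8, 133.8 and 170.3 CPM in CD8αβ IEL (-1.64 ± 0.22, adjusted p 6.58e-05). The CD8αα libraries lay below all companions, and CD4 IEL and CD8αβ IEL overlapped (-0.23 ± 0.21, adjusted p 0.443). When the CD8αα samples were the Y-positive libraries alone, the values were -1.80 (adjusted p 0.00677) and -1.90 (adjusted p 0.0047).

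Among the demethylases of lysine 4 of histone H3, Kdm5b rose in both CD8αα groups and was lowest in CD8αβ IEL. It had 102.7, 96.2 and 110.7 CPM in CD8αα from CD4, against 68.1, 56.1 and 53.7 CPM in CD4 IEL (log2 fold change 0.80 ± 0.24, adjusted p 0.0227). It had 83.4, 63.5 and 95.7 CPM in CD8αα from CD8αβ, against 37.1, 17.0 and 30.1 CPM in CD8αβ IEL (1.53 ± 0.25, adjusted p 3.18e-04). Neither pair of groups overlapped, nor did CD4 IEL and CD8αβ IEL, which differed by 1.09 ± 0.25 (adjusted p 0.00564). The call in the CD4 progeny ended without CD4 IEL replicate 2 or 3 or CD8αα from CD4 replicate 1 or 3 (adjusted p 0.057 to 0.0761). With Y-positive CD8αα libraries only, the values were 0.90 (adjusted p 0.178) and 1.18 (adjusted p 0.0775). Kdm5a was higher in CD4 IEL than in CD8αβ IEL by 0.50 ± 0.18 (adjusted p 0.0496), at 260.1 to 298.1 against 147.7 to 237.5 CPM, and the call ended when any of 9 of the 12 libraries was left out (adjusted p 0.0576 to 0.178), the exceptions being replicate 1 of CD8αα from CD4, of CD8αα from CD8αβ and of CD8αβ IEL. Kdm1a and Kdm1b, the flavin-dependent demethylases, were not called by edgeR in the model of all libraries, but without CD8αβ IEL replicate 1 Kdm1b was higher in CD8αα from CD8αβ than in CD8αβ IEL (1.16, adjusted p 0.0205).

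Kdm2b, which binds CpG islands and recruits a Polycomb complex, fell in both CD8αα groups, with 46.1, 54.8 and 38.1 CPM in CD8αα from CD4, against 109.0, 97.7 and 87.4 CPM in CD4 IEL (log2 fold change -1.08 ± 0.24, adjusted p 0.00403). It had 43.0, 31.7 and 31.1 CPM in CD8αα from CD8αβ, against 110.1, 56.3 and 67.5 CPM in CD8αβ IEL (-1.14 ± 0.24, adjusted p 0.00243). No libraries overlapped, and the Y-positive values were -1.36 (adjusted p 0.0618) and -1.30 (adjusted p 0.0688). Its row overlaps A930024E05Rik on the opposite strand over 8992 bases, and reads there cannot be told apart. Its paralogue Kdm2a was called only between the companions, with 121.3 to 173.1 CPM in CD4 IEL and 69.6 to 111.6 CPM in CD8αβ IEL (0.60 ± 0.21, adjusted p 0.0481). That call ended without CD4 IEL replicate 1 or 3, CD8αβ IEL replicate 2 or 3, CD8αα from CD4 replicate 3 or any CD8αα from CD8αβ library (adjusted p 0.059 to 0.174).

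Kdm4d, of the demethylases of lysine 9 of histone H3, was scarce and fell in both CD8αα groups. It had 0.683, 0.114 and 0.78 CPM in CD8αα from CD4, against 3.49, 2.35 and 2.99 CPM in CD4 IEL (log2 fold change -2.50 ± 0.81, adjusted p 0.0333). It had 0.187, 0.744 and 0.689 CPM in CD8αα from CD8αβ, against 3.46, 2.95 and 7.73 CPM in CD8αβ IEL (-3.10 ± 0.80, adjusted p 0.0089). These levels rest on 10 reads in CD8αα from CD4, 70 in CD4 IEL, 15 in CD8αα from CD8αβ and 100 in CD8αβ IEL. From summed reads, the level was 0.16 times that of CD4 IEL (exact 95% counting interval 0.0735 to 0.312) and 0.119 times that of CD8αβ IEL (0.064 to 0.205). The call in the CD4 progeny ended without any library of CD4 IEL or of CD8αα from CD4 (adjusted p 0.0505 to 0.112), and the Y-positive values were -1.90 (adjusted p 0.343) and -2.63 (adjusted p 0.194).

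Kdm4b, a further enzyme of that group, had 126.6, 85 and 84.1 CPM in CD8αα from CD8αβ, against 80.5, 43.4 and 59.9 CPM in CD8αβ IEL (log2 fold change 0.69 ± 0.22, adjusted p 0.0318). CD4 IEL, at 130.1, 102.1 and 132.1 CPM, were above CD8αβ IEL without overlap (0.99 ± 0.23, adjusted p 0.00597). The call in the CD8αβ progeny ended without CD8αβ IEL replicate 2 (0.11), CD8αβ IEL replicate 3 (0.0942) or CD8αα from CD8αβ replicate 1 (adjusted p 0.161) and in pairwise fits (adjusted p 0.0936), and the Y-positive value was 0.48 (adjusted p 0.435). Kdm4a was higher in CD4 IEL than in CD8αβ IEL (41.2 to 60.9 against 16.8 to 33.1 CPM, 0.91 ± 0.28, adjusted p 0.0251), which did not hold without CD4 IEL replicate 1 (0.0921), CD4 IEL replicate 2 (0.0529) or CD8αβ IEL replicate 2 (adjusted p 0.0858). Kdm3a, Kdm3b and Kdm4c were not called by edgeR in the model of all libraries. Kdm3b was higher in CD4 IEL than in CD8αβ IEL by 0.77 ± 0.28 (adjusted p 0.0508) and was called there by DESeq2 (0.0279), in pairwise fits (0.0401) and with the replicate block (adjusted p 0.00551). DESeq2 also called Kdm4c there (0.72, adjusted p 0.0447), and Kdm3a fell in the CD8αβ progeny without CD8αβ IEL replicate 2 (-0.59, adjusted p 0.0339).

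Of the 9 SET domain members named Setd, none was called in CD8αα from CD4 against CD4 IEL, and 1, Setd8, was called in the CD8αβ progeny. Setd8, which monomethylates lysine 20 of histone H4 in dividing cells, had 18, 13.2 and 14.1 CPM in CD8αα from CD8αβ, against 21.1, 27.6 and 28.0 CPM in CD8αβ IEL (log2 fold change -0.76 ± 0.24, adjusted p 0.0252). In CD8αα from CD4 it had 16.4, 13.1 and 20.4 CPM, against 19.7, 23.3 and 25.1 CPM in CD4 IEL, which overlapped (-0.45 ± 0.24, adjusted p 0.176). The call ended without CD8αβ IEL replicate 2 or 3 or CD8αα from CD8αβ replicate 2 or 3 (adjusted p 0.0584 to 0.0891) and with Y-positive libraries only (-0.95, adjusted p 0.134). The markers of dividing cells fell in the same comparison, and their part was not tested.

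Between the companions, Setd5 had 108.4, 114.7 and 115.2 CPM in CD4 IEL, against 79.5, 58.0 and 78.3 CPM in CD8αβ IEL (log2 fold change 0.65 ± 0.16, adjusted p 0.00953). Setd3, an actin histidine methyltransferase, had 120.7, 133.4 and 128.8 CPM in CD4 IEL, against 89.5, 95.1 and 88.8 CPM in CD8αβ IEL (0.49 ± 0.13, adjusted p 0.0146), and its call ended without CD4 IEL replicate 2 (adjusted p 0.0503). Both genes were higher in CD4 IEL without overlap. Setd2, which trimethylates lysine 36 of histone H3, missed the threshold at 0.63 ± 0.25 (adjusted p 0.0699), but was called by DESeq2 (0.0477), in pairwise fits (0.0325) and with the replicate block (adjusted p 0.0215). The H3 lysine 4 methyltransferases Setd1a and Setd1b stayed at 9.97 to 17.3 CPM and 3.32 to 8.38 CPM over all 12 libraries, the row of Setd1a overlapping Hsd3b7 on the same strand. Setd4, Setd6 and Setd7 were not called by edgeR in any pairwise comparison of the model of all libraries. In the test of that model for any difference among the 4 groups, Setd6 was called (adjusted p 0.0282). DESeq2 (-0.63, adjusted p 0.0307) and the fit without CD8αβ IEL replicate 2 (-0.75, adjusted p 0.0297) called Setd6 lower in CD8αα from CD8αβ than in CD8αβ IEL.

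Dnmt1, the maintenance methyltransferase, fell in both CD8αα groups, while Dnmt3a and Dnmt3b did not pass the test in any comparison. Dnmt1 had 174.9, 140.7 and 167.0 CPM in CD8αα from CD4, against 314.1, 304.4 and 287.6 CPM in CD4 IEL (log2 fold change -0.91 ± 0.24, adjusted p 0.0121). It had 195.5, 111.1 and 160.8 CPM in CD8αα from CD8αβ, against 288.0, 175.1 and 371.0 CPM in CD8αβ IEL, where CD8αβ IEL replicate 2 lay inside the CD8αα range (-0.83 ± 0.24, adjusted p 0.0177). Dnmt3a averaged 104.0 ± 13.5, 104.5 ± 28.3, 107.3 ± 17.4 and 89.9 ± 5.73 CPM in CD8αα from CD4, CD4 IEL, CD8αα from CD8αβ and CD8αβ IEL (SD, n = 3 each). Per length, Dnmt1 was 3.39 to 3.59 times Dnmt3a in CD8αα from CD4, against 4.73 to 7.92 times in CD4 IEL, and 2.52 to 3.81 times in CD8αα from CD8αβ, against 4.15 to 9.23 times in CD8αβ IEL (exact two-sided permutation test, p 0.1 each, the smallest possible). The Dnmt1 calls ended without CD8αα from CD4 replicate 2 (adjusted p 0.0563) in the CD4 progeny, without CD8αβ IEL replicate 3 (0.0675) or CD8αα from CD8αβ replicate 2 (adjusted p 0.0757) or in pairwise fits (adjusted p 0.072) in the CD8αβ progeny, and with Y-positive libraries only (-0.85, adjusted p 0.194, and -1.32, adjusted p 0.0564).

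The Tet genes moved apart. Tet1, on chromosome 10, had 39.1, 32.2 and 29.3 CPM in CD8αα from CD4, against 7.95, 14.0 and 9.28 CPM in CD4 IEL (log2 fold change 1.69 ± 0.48, adjusted p 0.0164). It had 30.8, 19.3 and 16.0 CPM in CD8αα from CD8αβ, against 10.9, 1.79 and 9.54 CPM in CD8αβ IEL (1.59 ± 0.48, adjusted p 0.0222). All CD8αα libraries were above all companions. Tet2, the family member best known as a regulator of T cell differentiation, had 31.6, 33.8 and 29.0 CPM in CD8αα from CD4, against 57.1, 47.9 and 52.5 CPM in CD4 IEL (-0.74 ± 0.23, adjusted p 0.0302). It had 23.9, 25.2 and 26.5 CPM in CD8αα from CD8αβ, against 45.8, 20.7 and 32.9 CPM in CD8αβ IEL, which overlapped (-0.39 ± 0.24, adjusted p 0.238), while without CD8αβ IEL replicate 2 the difference was -0.65 and called (adjusted p 0.021). Tet3 fell in CD8αα from CD4 by -0.64 ± 0.20 (adjusted p 0.0303), at 50.3 to 68.9 against 75.9 to 116.7 CPM in CD4 IEL. Per length, Tet1 was 1.04 to 1.35 times Tet2 in CD8αα from CD4, against 0.152 to 0.318 times in CD4 IEL, and 0.657 to 1.41 times in CD8αα from CD8αβ, against 0.0947 to 0.317 times in CD8αβ IEL (exact two-sided permutation test, p 0.1 each).

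These Tet calls depended on single libraries. Tet1 was not called in the CD4 progeny without CD4 IEL replicate 1 (0.0685), CD4 IEL replicate 3 (0.0548) or CD8αα from CD4 replicate 1 (adjusted p 0.0549), nor in the CD8αβ progeny without CD8αα from CD8αβ replicate 1 (0.0946) or in pairwise fits (adjusted p 0.0884). Tet2 in the CD4 progeny was not called without CD4 IEL replicate 1 or 3 or any CD8αα from CD4 library (adjusted p 0.06 to 0.101). Tet3 was not called without CD4 IEL replicate 3 (0.14), CD8αα from CD4 replicate 2 (0.118) or CD8αα from CD4 replicate 3 (adjusted p 0.093). Restricted to Y-positive CD8αα libraries, Tet1 gave 1.5 (adjusted p 0.256) and 1.39 (adjusted p 0.305), Tet2 -0.86 (adjusted p 0.261) and Tet3 -0.70 (adjusted p 0.209). Between the companions, Tet2 was higher in CD4 IEL by 0.67 ± 0.23 (adjusted p 0.047), and this ended without any library but CD8αβ IEL replicate 1 (adjusted p 0.054 to 0.153).

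**Figure D4:**
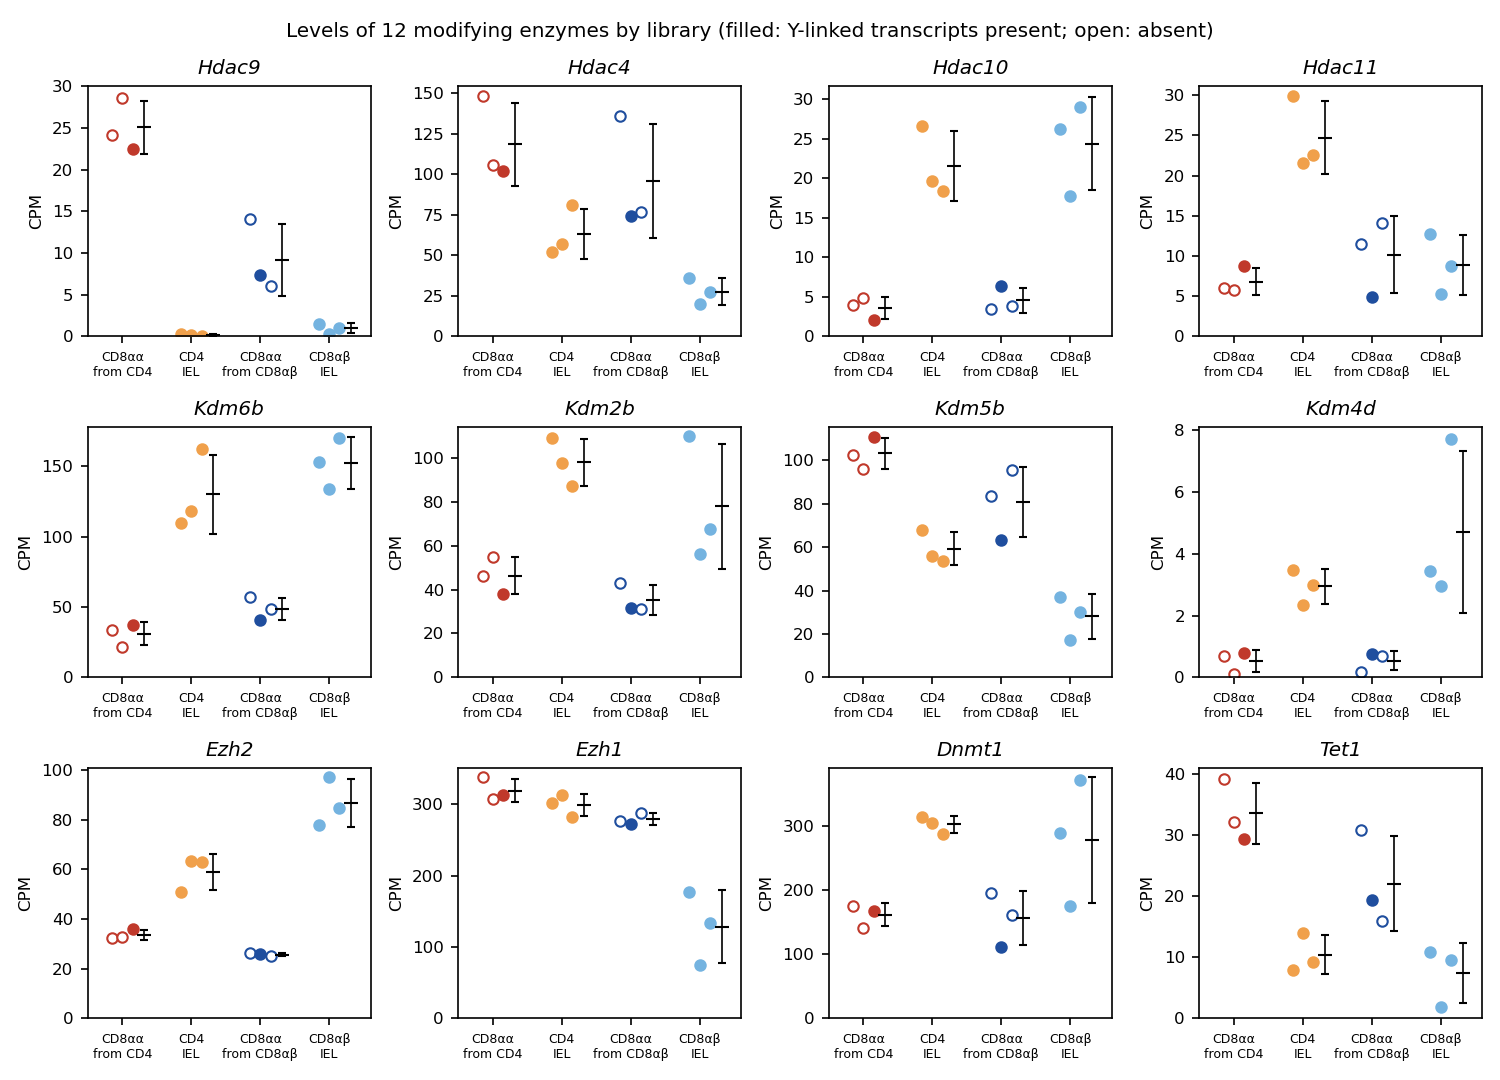
CPM of 12 members in each library (points, open where Y-linked transcripts were absent), with mean and SD of 3 libraries, by group. Hdac9, Hdac4, Kdm5b and Tet1 lie higher in both CD8αα groups, and Hdac10, Kdm6b, Kdm2b, Kdm4d and Ezh2 lie lower than in their companions without overlap, as in the 22.5 to 28.6 CPM of Hdac9 in CD8αα from CD4.

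No member passed the threshold between CD8αα from CD4 and CD8αα from CD8αβ with edgeR, where 4.33% of all genes did. DESeq2 called 1, Hdac9, at 1.47 (adjusted p 0.0259), and edgeR fitted to those 6 libraries alone called Hdac9 (1.46, adjusted p 0.0193) and Hdac6 (0.74, adjusted p 0.041). Leaving out CD8αβ IEL replicate 2 also gave a call for Hdac9 (1.44, adjusted p 0.0498). In the model of all 12 libraries Hdac9 differed by 1.44 ± 0.47 (adjusted p 0.105), although its libraries did not overlap between these groups. Kdm6b, Kdm4a and Hdac7 followed with -0.66 ± 0.22 (adjusted p 0.116), 0.77 ± 0.28 (adjusted p 0.144) and 0.64 ± 0.24 (adjusted p 0.169), and the replicate block called Kdm6b (-0.68, adjusted p 0.045) and Hdac7 (0.64, adjusted p 0.0367). The change from companion to CD8αα differed between the progenies for 2 members, Ezh2 and Hdac9, both with a positive difference, where 2.56% of all genes were called (1.2% with a positive difference). The difference for Hdac9 was 3.79 ± 0.93 (adjusted p 0.0494), and CD4 IEL, with 4 reads, were below CD8αβ IEL, with 20 (log2 fold change -2.34 ± 0.81, adjusted p 0.0446), although those libraries overlapped. That call between the companions ended without CD4 IEL replicate 2 or 3, CD8αβ IEL replicate 1 or 3, any CD8αα from CD4 library or CD8αα from CD8αβ replicate 2 (adjusted p 0.0516 to 0.162). The call on the difference ended without any library but CD8αβ IEL replicate 2 and CD8αα from CD8αβ replicate 1 (adjusted p 0.0552 to 0.11), and with Y-positive CD8αα libraries only (4.0, adjusted p 0.611). When all 4 groups were tested together for any difference, 26 members were called, as were 52.2% of all genes, and 21 members were called by edgeR in no pairwise comparison of that model.

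Between CD4 IEL and CD8αβ IEL the 11 members that were higher in CD4 IEL included 5 lysine demethylases, Kdm5b, Kdm4b, Kdm4a, Kdm2a and Kdm5a, and none of the 13 demethylases was lower, beside 12.9% of all genes higher and 16.0% lower. Without CD8αβ IEL replicate 2, 6 members were higher and 4 lower, with Kdm5b and Kdm4b the 2 demethylases among them. The share of all genes called in that fit is not given, so the drop is not read as particular to the members. The count also depended on the scaling: by library totals alone 16 members were higher and 3 lower. Over all genes, that scaling gave 2309 higher and 1724 lower calls (57.3% higher), against 1630 and 2025 (44.6% higher) with TMM factors, and moved the median of all genes to 0.129, against 0.012. Between the CD8αα groups it gave 314 higher and 223 lower (58.5% higher), against 236 and 311 (43.1% higher), with no member called either way.

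Partners of these enzymes were read from lists of related genes. Of 9 PRC2 partners, 2 fell and 0 rose in CD8αα from CD4, and 5 fell and 1 rose in CD8αα from CD8αβ, while of all genes 13.5% fell and 15% rose in the first comparison and 15.1% fell and 16.1% rose in the second. With Y-positive CD8αα libraries only, 1 of the 9 fell in the CD4 progeny, Aebp2 (-1.16, adjusted p 0.0341), and 0 in the CD8αβ progeny, where Aebp2 gave -1.0 (adjusted p 0.0564). Aebp2, an accessory subunit, had 18.3, 30.3 and 38.1 CPM in CD8αα from CD4, against 70.2, 94.7 and 91.0 CPM in CD4 IEL (log2 fold change -1.56 ± 0.24, adjusted p 2.54e-04). It had 22.9, 27.5 and 19.5 CPM in CD8αα from CD8αβ, against 53.0, 51.8 and 60.5 CPM in CD8αβ IEL (-1.24 ± 0.24, adjusted p 0.00126). The medians of the list were -0.32 and -0.47. Of 12 partners and readers of DNA methylation, 3 fell and 2 rose in CD8αα from CD4 and 5 fell and 3 rose in CD8αα from CD8αβ, with medians of -0.49 and -0.31. Uhrf1, which brings Dnmt1 to replicated DNA, had 29.5, 24.3 and 21.4 CPM in CD8αα from CD4, against 135.1, 144.5 and 144.7 CPM in CD4 IEL (-2.50 ± 0.21, adjusted p 1.18e-06). It had 34.2, 37.2 and 22.4 CPM in CD8αα from CD8αβ, against 153.2, 187.0 and 213.9 CPM in CD8αβ IEL (-2.56 ± 0.20, adjusted p 6.46e-07). Hells, a remodeller needed for DNA methylation, fell by 2.60 ± 0.27 in CD8αα from CD8αβ (adjusted p 7.98e-06). In the Y-positive setting, 3 of the 12 fell in each comparison and 1 rose in the CD8αβ progeny, with Uhrf1 at -2.73 (adjusted p 0.000614) and -2.31 (adjusted p 0.000931) and Hells in the CD8αβ progeny at -2.31 (adjusted p 0.00524). The markers of dividing cells moved with these genes, and their part was not tested.

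Of 18 tested subunits of the corepressor complexes that hold class I deacetylases, 4 fell and 2 rose in CD8αα from CD4 and 6 fell and 2 rose in CD8αα from CD8αβ, with medians of -0.44 and -0.30, while 28.5% and 31.2% of all genes were called. Chd3, a remodeller of the NuRD complex, had 59.0, 34.6 and 45.1 CPM in CD8αα from CD4, against 271.4, 214.5 and 228.2 CPM in CD4 IEL (log2 fold change -2.37 ± 0.26, adjusted p 1.40e-05), and it fell by 1.34 ± 0.25 in CD8αα from CD8αβ (adjusted p 0.00112). Mta3, another NuRD subunit, rose in CD8αα from CD8αβ, with 323.6, 301.8 and 278.5 CPM, against 142.2, 139.5 and 144.1 CPM in CD8αβ IEL (1.09 ± 0.11, adjusted p 6.72e-06). In the Y-positive setting, Chd3 gave -2.40 (adjusted p 0.00528) and -1.71 (adjusted p 0.0202) and Mta3 1.09 (adjusted p 0.00605). None of the 10 COMPASS genes, whose products methylate lysine 4 of histone H3, was called in either comparison, with medians of -0.19 and -0.25. Of 13 other histone methyltransferases, 4 fell and 0 rose in CD8αα from CD4 and 2 fell and 1 rose in CD8αα from CD8αβ, with Suv39h1, a writer of H3 lysine 9 trimethylation, at -1.17 ± 0.26 (adjusted p 0.00392) and -1.63 ± 0.26 (adjusted p 2.62e-04). Of 10 acetyltransferases, 2 and 1 fell and 0 rose, Kat2b in both, at -0.99 ± 0.26 (adjusted p 0.0119) and -0.92 ± 0.26 (adjusted p 0.0167). Of 6 JmjC proteins outside the rule, 1 fell in each comparison, Hif1an by 0.74 ± 0.16 in CD8αα from CD4 (adjusted p 0.00319) and Jmjd6 by 0.40 ± 0.14 in CD8αα from CD8αβ (adjusted p 0.0447). Between the CD8αα groups, 1 gene of all these lists was called, the stress-induced Gadd45g, with 87.7, 79.9 and 70.5 CPM in CD8αα from CD4, against 139.3, 197.9 and 166.0 CPM in CD8αα from CD8αβ (-1.08 ± 0.27, adjusted p 0.0381). Restricted to Y-positive CD8αα libraries, Suv39h1 gave -0.90 (adjusted p 0.0938) and -1.28 (adjusted p 0.0228), Kat2b -0.97 (0.153) and -1.44 (0.0443), Hif1an -0.77 (0.101), Jmjd6 -0.55 (0.225) and Gadd45g -1.49 (adjusted p 0.651).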

How the data were processed

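RNA sequencing of 12 libraries, 3 in each of 4 groups, was analysed from a table of read counts per gene that the authors deposited. Reads were aligned with HISAT2 2.1.0 to mm10, per the submitters' processing notes; for the counting program, annotation and strand setting, the sources used here give nothing. A further 66 rows repeated a symbol and were left out (0.0202% of reads). Depth was 5620257 to 11070734 counts per library, so 3 counts equal 0.271 to 0.534 CPM.

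Counts were tested with edgeR 4.0.16 (R 4.3.3; TMM, quasi-likelihood, filterByExpr with a minimum count of 10 and a minimum total of 15) in 1 model with a mean per group, over 12622 genes with Benjamini-Hochberg adjustment. SE is the log2 fold change over the square root of F. CPM use TMM-scaled totals, and RPKM the union of GENCODE M21 exons. The procedure was tested on simulated data. Members called in any pairwise comparison are named with values. Members, classes and lists were chosen with earlier results of these data known. Alternatives were other scalings and filters, DESeq2 1.42.0, pairwise fits, a replicate block, leaving out each library, and the Y-positive CD8αα libraries alone. Hdac4 rows kept apart was added after seeing the data. Libraries of 1 group differed by more than counting noise (chi-square per gene 11.4 to 60.2).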

Additional observations from a re-analysis of the deposited data

Results flagged for a closer look

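The change from companion to CD8αα cells differed between the progenies for 2 members. For Ezh2 the difference was 0.94 on the log2 scale (edgeR's quasi-likelihood test, adjusted p 0.0351), the fall being -0.81 in CD8αα from CD4 against CD4 IEL and -1.75 in CD8αα from CD8αβ against CD8αβ IEL. For Hdac9 the difference was 3.79 (adjusted p 0.0494), the rise being 7.10 for CD8αα from CD4, while it was 3.31 for CD8αα from CD8αβ, with 4 reads in CD4 IEL and 20 in CD8αβ IEL behind the companion levels. Neither was called with Y-positive CD8αα libraries only (1.03, adjusted p 0.555, and 4.0, adjusted p 0.611).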

How the results depend on the processing

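Over 1051 alternative values of the 48 called results of 27 members, 880 kept the call, 171 lost it and 0 reversed. Leaving out 1 library gave 9 to 14 members called in CD8αα from CD4 against CD4 IEL (14 with all), 11 to 18 in CD8αα from CD8αβ against CD8αβ IEL (17), 0 to 1 between the CD8αα groups (0), 9 to 17 in CD4 IEL against CD8αβ IEL (15), 0 to 3 for the difference between the changes (2) and 21 to 27 for any difference (26). The lowest counts came without CD8αα from CD4 replicate 1 (9), CD8αβ IEL replicate 3 (11) and CD4 IEL replicate 1 or 2 (9 each). With Y-positive CD8αα libraries only, fewer members were called wherever any had been, and a smaller share of all genes was called in every comparison. Between the CD8αα groups, pairwise fits called 2, the replicate block 2 and DESeq2 1. For the difference between the changes, library totals alone called 1, the replicate block 4, DESeq2 5. Counts without the share of all genes beside them are not read as particular to the members. Of 18 same-numbered pairs of libraries, 2 had a correlation over 0.1 (-0.069 to 0.326), and 8 of 12 libraries correlated best with one of their own number. The pairs over 0.1 joined CD8αβ IEL to CD8αα from CD8αβ. Between those groups the same-numbered correlations were 0.205, 0.326 and 0.098, against -0.257 to 0.058 for the other pairs. The main model took no account of replicate numbers, and only the replicate block did. The cause of the changes described here was not tested. Depth limits Hdac9 in the companions and Kdm4d in CD8αα cells, which rest on few reads.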
